A study of Mus musculus with 26 samples.

Results

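Of the 46517 gene symbols in the deposited table, 8 make up the group of voltage-gated calcium and sodium channel genes described here. They are Cacna1e, Cacna2d4, Cacnb1, Cacnb3 and Cacng4 for calcium channel subunits, Scn2b and Scn4b for sodium channel beta subunits, and Scnn1a, which encodes a subunit of the epithelial sodium channel and is not voltage-gated. The genes were chosen by symbol, mostly because the study had selected them on their measured difference between OT-1 and TG6 thymocytes, so that difference is given below as a description, with no test. Bulk RNA-seq was performed on sorted thymocytes from TCR transgenic mice of 3 lines, TG6 with low, F5 with intermediate and OT-1 with high self-reactivity. TG6 mice were TG6tg H2b/d on a C57/BL6 x B6.C-H2d/bByJ background with no Rag deletion in the labels, F5 mice were F5tg Rag1KO and OT-1 mice were OT-1tg Rag2KO, both on C57/BL6, so receptor, Rag genotype and H2 background cannot be told apart between lines. Each line carries 1 transgenic TCR that is restricted to MHC class I, so a group speaks for that receptor and not for a polyclonal repertoire, and the mice were between 3 and 10 weeks old. Double positive thymocytes (CD4+CD8+) that were CXCR4+CCR7- stood for early positive selection and those that were CXCR4-CCR7+ for late positive selection, and CD4-CD8+ cells with CXCR4-CCR7+ for the mature CD8SP stage, with 3 libraries from separate mice in each of the 9 groups except that late TG6 thymocytes had 2. The design text gives 3 mice per line, whose thymocytes were sorted into the 3 stages. The main fit does not pair libraries by mouse, and an alternative with a block for the replicate number does.

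Voltage-gated calcium channels are built around a pore-forming alpha 1 subunit, which opens on depolarization. Beta subunits bind the pore subunit inside the cell and bring it to the plasma membrane, alpha 2 delta subunits sit outside the membrane and raise channel density, and gamma subunits are membrane proteins that tune gating or, for some members, glutamate receptors. Sodium channel beta subunits are single-pass membrane proteins that tune the gating of the sodium pore and take part in cell adhesion. T cells do not fire action potentials, and calcium enters them after TCR engagement mainly through store-operated channels. Beta subunits of voltage-gated calcium channels are also known from T cells.

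The RefSeq promoter table (GRCm38.p6) held 7 windows for 5 of the 8 genes, namely Cacna1e, Cacnb1, Cacnb3, Scn2b and Scn4b. The 250 bases before the RefSeq start were searched on both strands for the E-box CANNTG, its form CAGGTG, the GC box GGGCGG, the RUNX motif TGTGGT and the TATA box TATAAA. These letters occurred in 66.2%, 17.2%, 32.7%, 14.0% and 12.4% of the 32851 promoter windows of that length in the table. Stretches outside annotated exons are shown for Scn2b, which fell from early to late positive selection in all 3 lines, and for Cacnb1, which rose in all 3, because they stand for the lowest and highest GC content among the 7 windows. Capitals mark the matches.
Scn2b, chr9:45117626-45117781, plus strand, 156 bases: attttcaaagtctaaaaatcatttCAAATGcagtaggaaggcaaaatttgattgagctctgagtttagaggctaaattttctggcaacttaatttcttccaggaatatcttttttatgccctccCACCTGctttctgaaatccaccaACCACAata
Cacnb1, chr11:98022635-98022877, minus strand, 243 bases: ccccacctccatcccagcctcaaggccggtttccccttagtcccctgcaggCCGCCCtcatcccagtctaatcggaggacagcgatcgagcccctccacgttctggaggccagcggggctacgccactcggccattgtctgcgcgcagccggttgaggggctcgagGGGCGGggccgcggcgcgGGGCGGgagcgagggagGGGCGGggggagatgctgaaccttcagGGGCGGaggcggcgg
The Scn2b window had a GC content of 38.4% with 1 CpG, 2 E-boxes (1 of them CAGGTG on the other strand) and 1 RUNX match, and no GC or TATA box. This Cacnb1 window had a GC content of 73.2% with 26 CpGs and 5 GC boxes, and none of the other motifs. The other Cacnb1 window had a GC content of 56% with 1 CpG, 1 E-box, 1 RUNX match and no GC box. The median window had a GC content of 52.4% and 6 CpGs. In the windows of Cacna1e and Scn4b none of these letters were found, and their GC content was 52% and 66%. The RefSeq starts lay inside the genes as annotated by GENCODE vM21. The windows ended 158581 bases inside the gene for Cacna1e, 229 for Scn4b, 94 for Scn2b, 1488 and 3927 for Cacnb3, and 407 (the window shown) and 4662 for Cacnb1. All 250 bases of the Cacna1e window and 229 of those of the Scn4b window were in annotated exons. Scn2b (chromosome 9, 45117782 to 45130070) and Scn4b (chromosome 9, 45138395 to 45154152) are neighbours on the plus strand, 8.32 kb apart.

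Library totals of normalized counts lay between 16134786 and 18944173. Changes were assessed by limma on log2(value + 1), in a joint fit of the 9 groups, over the 16372 genes that reached 10 in 2 or more libraries. All 8 channel genes passed this filter. Because 1 was added before taking logs, the changes of low genes come out too small. A gene was called where its p-value, adjusted by Benjamini-Hochberg over all genes tested, was under 0.05. Of the genes for sorting markers, Cd4 lay at 62.8 to 461 normalized counts in mature CD8SP libraries against 7980.0 to 22731 at early positive selection, while Cd8a lay at 15088 or more in every library. Cd3e, which was not used for sorting, lay at 4798 or more. Ccr7 lay at 112 to 863 in early libraries and at 2698 to 12719 in late and mature ones. Cxcr4 overlapped between early and mature libraries in F5 (2638 to 4185 and 1462 to 4031) and OT-1 (1425 to 2898 and 1219 to 3316). In TG6 it did not (4598 to 5527 and 1809 to 2067). In bulk samples, fewer cells that express a gene and less RNA per cell cannot be told apart. Other cell types were looked for through marker lists. Of 6 thymic epithelial markers Krt5, Krt8 and Foxn1 had at most 2.90 normalized counts, and the summed list lay at 40 to 91 in all libraries. The summed B cell, myeloid, dendritic cell, endothelial, fibroblast and erythroid lists lay at 108 to 319, 84.1 to 347, 24.7 to 259, 1822 to 3628 (nearly all Pecam1), 9.09 to 79.5 and 20.3 to 821. The myeloid sum moved with the stage, from 254 to 347 in early to 101 to 127 in late and 118 to 126 in mature TG6 libraries, from 227 to 286 to 105 to 158 and 84.1 to 157 in F5, and from 211 to 302 to 162 to 218 and 129 to 167 in OT-1. The dendritic cell sum was 24.7 to 58.1, 69.1 to 79.2 and 131 to 259 at these stages in TG6, 33.5 to 53.7, 35.4 to 43.9 and 50.4 to 114 in F5, and 83.7 to 193, 40.5 to 56.3 and 81.1 to 91.9 in OT-1. The part of these cells in the values below was not tested.

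One library stood apart. TG6 mature CD8SP replicate 3 correlated at 0.950 and 0.953 with the other libraries of its group and at 0.959 with an OT-1 mature CD8SP library, and it was the only library closer to another group than to its own. It had 5265 normalized counts of Rag1, a gene of the recombinase that preselection thymocytes express, against 696 and 619.9 in replicates 1 and 2, and 787 of Ptcra, the pre-T alpha chain, against 94.9 and 94.5. The Ptcra value was above those of the 3 early TG6 libraries, which had 335 to 483. F5 late positive selection replicate 2 had 1658 normalized counts of Rag1 against 62.3 and 109 in replicates 1 and 3. The mature F5 libraries had 704, 2698 and 1896 of Rag1 and 120.3, 318 and 177 of Ptcra. In TG6 and OT-1 every mature library lay above every late one for both genes. Late TG6 libraries had 249 and 124 of Rag1 and 13.7 and 7.86 of Ptcra. In OT-1 Rag1 lay at 24.1 to 82.1 in late and 203 to 545 in mature libraries, and Ptcra at 4.14 to 11.2 and 52.2 to 92.9. Values without TG6 mature replicate 3 or F5 late replicate 2 stand beside several of the results below, and the part of earlier cells in these libraries was not tested.

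**Figure D1:**
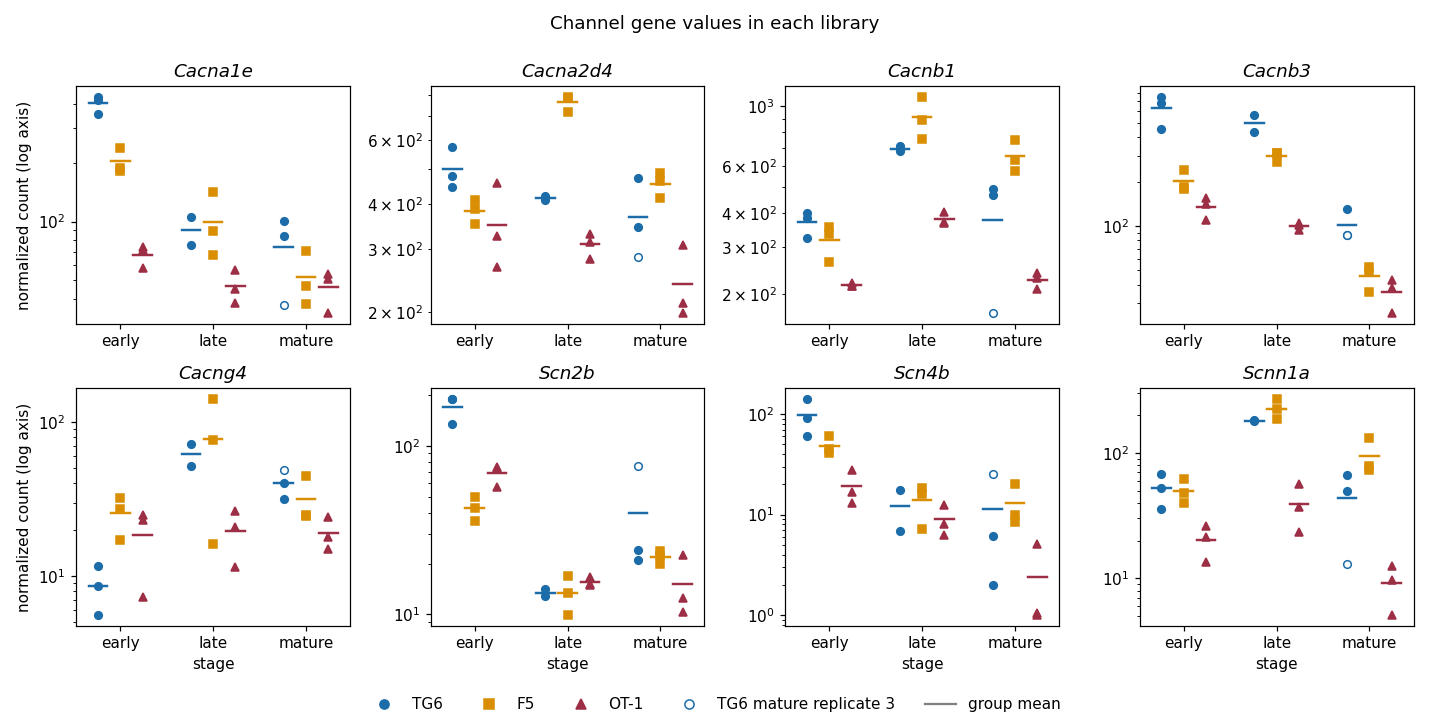
Normalized counts (log axis) of the 8 channel genes in each of the 26 libraries, by stage and line, with bars for group means and an open circle for TG6 mature CD8SP replicate 3. Cacna1e, Scn2b and Scn4b were highest at early positive selection in every line, and Cacnb1 and Scnn1a at late positive selection.

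Cacna1e (chromosome 1, 154390731 to 154884501, minus strand) encodes the pore subunit of the R-type calcium channel. At early positive selection its normalized counts were 434, 421 and 355 in TG6, 183, 238 and 188 in F5, and 71.2, 57.7 and 74.2 in OT-1, so the 3 lines did not overlap. At late positive selection they were 75.8 and 106 in TG6, 67.7, 142 and 89.1 in F5, and 56.4, 38.4 and 45.1 in OT-1. In mature CD8SP thymocytes they were 84.7, 101 and 37.5 in TG6, 70.7, 37.7 and 46.6 in F5, and 50.6, 34.1 and 53.6 in OT-1, and here the lines overlapped. From early to late positive selection Cacna1e fell by 2.15 ± 0.36 (SE) on the log2 scale in TG6 (limma, adjusted p = 8.78e-05) and by 1.08 ± 0.32 in F5 (adjusted p = 0.0151). The F5 call was lost without F5 late replicate 1 or early replicate 2 (adjusted p = 0.0851 and 0.0674), and without late replicate 2 the change was -1.36 (adjusted p = 0.00505). In OT-1 the change was -0.54 ± 0.32 (adjusted p = 0.236), although every late library lay below every early one. Between the early and mature stages it fell by 2.53 ± 0.32 in TG6 (adjusted p = 1.54e-06, with a change of -2.11 and adjusted p = 7.18e-06 without mature replicate 3) and by 1.99 ± 0.32 in F5 (adjusted p = 8.44e-05), and OT-1 had a change of -0.56 ± 0.32 (adjusted p = 0.236). Between the late and mature stages only F5 passed the test, with a fall of 0.91 ± 0.32 (adjusted p = 0.0474). That call was lost without F5 late replicate 2 (log2 change -0.63, adjusted p = 0.236), and also without F5 late replicate 3 or mature replicate 2 or 3 (adjusted p = 0.088 to 0.209). It was lost in 4 of 9 alternatives in the processing as well.

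Cacnb3 (chromosome 15, 98630840 to 98644529, plus strand) encodes a calcium channel beta subunit that has been studied in CD8 T cells. Its normalized counts at early positive selection were 456, 687 and 747 in TG6, 179, 241 and 184 in F5, and 111, 139.8 and 154 in OT-1. At late positive selection they were 434 and 565 in TG6, 273, 314 and 311 in F5, and 93.4, 101 and 105 in OT-1. In mature CD8SP thymocytes they were 86.6, 130.2 and 87.3 in TG6, 35.5, 48.6 and 53.0 in F5, and 38.1, 25.8 and 43.1 in OT-1. Cacnb3 thus kept 1 order, TG6 over F5 over OT-1, at all 3 stages, and only F5 and OT-1 at the mature stage overlapped. The fall came between the late and mature stages in every line, with log2 changes of -2.30 ± 0.25 (SE) in TG6 (limma, adjusted p = 1.55e-06), -2.70 ± 0.23 in F5 (adjusted p = 5.24e-08) and -1.49 ± 0.23 in OT-1 (adjusted p = 7.54e-05). From early to late positive selection no line passed the test, with changes of -0.32 ± 0.25, 0.58 ± 0.23 and -0.42 ± 0.23 (adjusted p = 0.423, 0.0635 and 0.189). The F5 change was called in 4 of 9 alternatives in the processing, among them a block for the replicate number (adjusted p = 0.0208). It was also called without F5 early replicate 2 (adjusted p = 0.048).

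Cacnb1 (chromosome 11, 98001508 to 98023034, minus strand), for which 1 of 2 RefSeq windows is printed above, encodes the beta subunit of the skeletal muscle calcium channel and is also present in T cells. Its normalized counts at early positive selection were 325, 402 and 385 in TG6, 264, 355 and 335 in F5, and 219.6, 214 and 214 in OT-1. They were 709 and 683 at late positive selection in TG6, 755, 891 and 1081 in F5, and 371, 404 and 368 in OT-1, all above the early libraries of the same line. Mature CD8SP thymocytes had 493, 469 and 171 in TG6, 631, 574 and 747 in F5, and 209, 239.7 and 229 in OT-1. From early to late positive selection Cacnb1 rose in all 3 lines, by 0.91 ± 0.28 (SE) on the log2 scale in TG6 (limma, adjusted p = 0.0206), 1.51 ± 0.25 in F5 (adjusted p = 0.000113) and 0.82 ± 0.25 in OT-1 (adjusted p = 0.0202). The TG6 call was lost with the replicate block (log2 change 0.68, adjusted p = 0.0618), without either late library or without early replicate 1 (adjusted p = 0.0688 to 0.114), and the OT-1 call without OT-1 late replicate 2 or early replicate 2 or 3 (adjusted p = 0.0503 to 0.0652). Toward the mature stage it fell by 1.03 ± 0.28 in TG6 (adjusted p = 0.0116) and 0.75 ± 0.25 in OT-1 (adjusted p = 0.0347). In OT-1 this call was lost when any 1 of the 6 libraries was left out (adjusted p = 0.0596 to 0.0993), and in TG6 without late replicate 1 or 2 (adjusted p = 0.0819 and 0.0695). Without TG6 mature replicate 3 the TG6 change was -0.53 (adjusted p = 0.0274). F5 mature thymocytes kept a higher level, 1.03 ± 0.25 above early positive selection (adjusted p = 0.0051). In TG6 the change from the early to the mature stage was -0.12 ± 0.25 (adjusted p = 0.762), and without mature replicate 3, which had 171, it was 0.38 (adjusted p = 0.053).

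Cacna2d4 (chromosome 6, 119236526 to 119352407, plus strand) encodes an alpha 2 delta subunit known from the retina. In F5 its normalized counts were 352, 410.0 and 387 in early, 718, 786 and 791 in late and 414, 463 and 488 in mature CD8SP thymocytes. In TG6 they were 575, 445 and 477, then 420.3 and 408, then 344, 473 and 285. In OT-1 they were 456, 325 and 266, then 313, 330.3 and 281, then 307, 212 and 199. The late F5 libraries thus lay above every other library of the series for this gene. In F5 it rose by 1.00 ± 0.19 (SE) on the log2 scale from early to late positive selection (limma, adjusted p = 0.000395) and fell by 0.75 ± 0.19 toward the mature stage (adjusted p = 0.00652). In OT-1 it fell by 0.53 ± 0.19 from the early to the mature stage (adjusted p = 0.0454), although the groups overlapped, and this call was lost without OT-1 early replicate 1 or 2 or mature replicate 2 or 3 (adjusted p = 0.0741 to 0.284). It was lost in 3 of 9 alternatives in the processing as well. In TG6 the same change was -0.46 ± 0.19 (adjusted p = 0.0636), which was called with the replicate block (adjusted p = 0.0187), without mature replicate 2 (adjusted p = 0.0116), and with equal totals or quantile normalization (-0.55 and -0.56, adjusted p = 0.0338 and 0.0372). Lrtm2, which lies inside Cacna2d4 on the other strand, had 3.99 to 52.4 normalized counts, and the strandedness of the libraries is not given in the sources used here.

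Cacng4 (chromosome 11, 107732357 to 107794557, minus strand) encodes a gamma subunit that also serves as an auxiliary subunit of AMPA receptors. It was the gene with the lowest early values in TG6, with 11.6, 5.59 and 8.55 normalized counts in early, 51.9 and 71.8 in late and 31.6, 40 and 48.5 in mature CD8SP thymocytes. In F5 it had 32.3, 17.1 and 27.3, then 141, 16.1 and 76.7, then 44.6, 24.7 and 25.0. In OT-1 it had 23.1, 7.25 and 24.7, then 20.8, 26.4 and 11.4, then 14.9, 24.0 and 17.8, and all stages overlapped. In TG6 Cacng4 rose by 2.74 ± 0.63 (SE) on the log2 scale from early to late positive selection (limma, adjusted p = 0.00232) and by 2.13 ± 0.57 from the early to the mature stage (adjusted p = 0.00515). In F5 the change to the late stage was 1.16 ± 0.57 (adjusted p = 0.142). Without F5 late replicate 2, the library with 16.1, it was 2.03 (adjusted p = 0.00365), and the change from the late to the mature stage moved from -0.88 (adjusted p = 0.314) to -1.75 (adjusted p = 0.0151).

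Scn2b, a beta subunit of neuronal and cardiac sodium channels, had its highest values at early positive selection in every line. The normalized counts were 135, 189 and 189 in TG6, 42.8, 36.0 and 50 in F5, and 74.2, 57.2 and 74.4 in OT-1, so that F5 and not OT-1 was lowest at this stage. At late positive selection they were 14.1 and 12.8 in TG6, 16.8, 13.3 and 9.94 in F5, and 15.0, 16.6 and 15.2 in OT-1, which left little difference between lines. From early to late positive selection Scn2b fell in all 3 lines, with log2 changes of -3.56 ± 0.40 (SE) in TG6 (limma, adjusted p = 8.6e-07), -1.63 ± 0.36 in F5 (adjusted p = 0.00172) and -2.06 ± 0.36 in OT-1 (adjusted p = 0.000222). Mature CD8SP thymocytes had 24.1, 20.9 and 75.4 in TG6, 19.9, 23.9 and 22.2 in F5, and 22.4, 12.4 and 10.4 in OT-1. In TG6 it rose between the late and mature stages by 1.27 ± 0.40 (adjusted p = 0.0273). The value of 75.4 belongs to TG6 mature replicate 3, and without it the change was 0.70 (adjusted p = 0.165). The call was also lost without TG6 late replicate 1 or 2 (adjusted p = 0.104 and 0.153) and in 3 of 8 alternatives in the processing, among them the replicate block (0.94, adjusted p = 0.0855). In F5 the mature libraries also lay above the late ones, with a change of 0.70 ± 0.36 that did not pass the test (adjusted p = 0.19). Between the early and mature stages Scn2b fell in TG6 and OT-1, with changes of -2.29 ± 0.36 and -2.18 ± 0.36 (adjusted p = 2.79e-05 and 0.000106), and in F5 the change was -0.93 ± 0.36 (adjusted p = 0.0791, or 0.0442 with the replicate block). Gm10684, a non-coding gene on the other strand that spans Scn2b, had at most 4.04 normalized counts.

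Scn4b, another sodium channel beta subunit and the neighbour of Scn2b, had 60.4, 90.4 and 140.3 normalized counts at early positive selection in TG6, 44.8, 60.0 and 40.8 in F5 and 17.0, 13.1 and 27.6 in OT-1. At late positive selection the values were 17.6 and 6.88 in TG6, 18.4, 16.1 and 7.13 in F5, and 6.21, 12.6 and 8.11 in OT-1. Mature CD8SP thymocytes had 2.02, 6.10 and 25.6 in TG6, 20.2, 8.50 and 10 in F5, and 5.14, 1.04 and 1.01 in OT-1, and the highest of these TG6 values was again that of replicate 3. Scn4b fell from the early to the late stage by 2.93 ± 0.70 (SE) on the log2 scale in TG6 (limma, adjusted p = 0.00306) and by 1.81 ± 0.63 in F5 (adjusted p = 0.0356). The change in OT-1 was -1.01 ± 0.63 (adjusted p = 0.258). Between the early and mature stages it fell in all 3 lines, with changes of -3.48 ± 0.63 in TG6 (adjusted p = 0.000127), -1.90 ± 0.63 in F5 (adjusted p = 0.0352) and -2.72 ± 0.63 in OT-1 (adjusted p = 0.00256). Without mature replicate 3 the TG6 change was -4.32 (adjusted p = 4.06e-06), and without mature replicate 1 it was -2.75 (adjusted p = 0.00157). The F5 calls were fragile. Leaving out 1 library ended the early to late call in 5 of 6 cases (adjusted p = 0.05 to 0.158, all except F5 late replicate 1) and the early to mature call in 5 of 6 cases (adjusted p = 0.0647 to 0.116, all except F5 mature replicate 1), and the TG6 early to late call was lost without TG6 late replicate 2 (adjusted p = 0.0819). Of 8 alternatives in the processing, 3 ended the F5 early to late call and 3 the F5 early to mature call. The OT-1 change between the late and mature stages was -1.71 ± 0.63 (adjusted p = 0.0504), which was called with the replicate block (adjusted p = 0.0258) and without OT-1 mature replicate 1 (adjusted p = 0.0229).

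Scnn1a (chromosome 6, 125320659 to 125344943, plus strand) encodes the alpha subunit of the epithelial sodium channel, which forms a pore together with beta and gamma subunits. The genes of those subunits, Scnn1b and Scnn1g, had at most 0.994 normalized counts and 0 in every library. Scnn1a was highest at late positive selection. TG6 had 67.7, 52.2 and 36.0 in early, 179.8 and 181 in late and 66.7, 50.1 and 13 in mature thymocytes. F5 had 62.1, 48.1 and 40, then 267, 222 and 185, then 131, 78.1 and 73.1. OT-1 had 26.0, 21.5 and 13.6, then 37.0, 56.8 and 23.4, then 12.6, 9.74 and 5.13. From early to late positive selection Scnn1a rose by 1.82 ± 0.51 (SE) on the log2 scale in TG6 (limma, adjusted p = 0.0107) and by 2.15 ± 0.46 in F5 (adjusted p = 0.00118). The TG6 call was lost without TG6 late replicate 1 or 2 (adjusted p = 0.0662 and 0.0706). In OT-1 the change was 0.87 ± 0.46 (adjusted p = 0.175, or 0.0167 with the replicate block). Between the late and mature stages it fell by 2.32 ± 0.51 in TG6 (adjusted p = 0.00229), and the change was -1.63 without mature replicate 3 (adjusted p = 0.011). In OT-1 it fell by 1.97 ± 0.46 (adjusted p = 0.00352), and the F5 change of -1.28 ± 0.46 lay just over the threshold (adjusted p = 0.0513). The F5 change was called in 5 of 9 alternatives in the processing, among them the replicate block (adjusted p = 0.00152), and without F5 mature replicate 1 (adjusted p = 0.0363). Between the early and mature stages the changes were -0.49 ± 0.46 in TG6 (adjusted p = 0.446, and 0.20 with adjusted p = 0.755 without mature replicate 3), 0.87 ± 0.46 in F5 (adjusted p = 0.212) and -1.10 ± 0.46 in OT-1 (adjusted p = 0.092). With the replicate block the last 2 were called (adjusted p = 0.0207 and 0.00408).

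**Figure D2:**
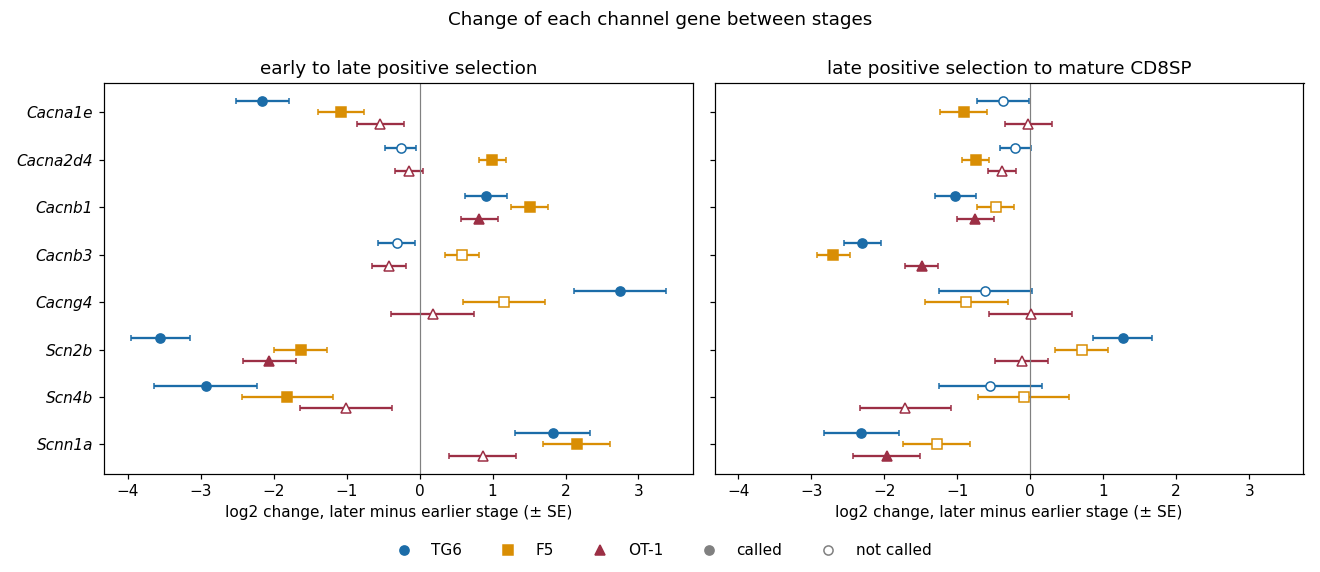
Log2 change ± SE of each channel gene from early to late positive selection (left) and from late positive selection to the mature CD8SP stage (right) in TG6, F5 and OT-1, filled where called by limma and open where not. On the left Scn2b was called lower and Cacnb1 called higher in all 3 lines, and on the right Cacnb3 was called lower in all 3.

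The TG6 and OT-1 libraries chose most of these genes, and the study's ordering of gene sets also used F5, so the counts of no line are independent of the choice. In F5, 3 of the 8 genes fell (Cacna1e, Scn2b and Scn4b) and 3 rose (Cacna2d4, Cacnb1 and Scnn1a) from early to late positive selection, against 14.0% and 12.7% of the 16372 genes tested. From late positive selection to the mature stage, 3 fell (Cacna1e, Cacna2d4 and Cacnb3) and 0 rose by limma, against 8.31% and 12.2% of all genes. From the early to the mature stage 3 fell (Cacna1e, Cacnb3 and Scn4b) and 1 rose (Cacnb1), against 8.79% and 10.8%.

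In TG6, 3 genes fell (Cacna1e, Scn2b and Scn4b) and 3 rose (Cacnb1, Cacng4 and Scnn1a) from early to late positive selection, against 13.3% and 12.1% of all genes. From late positive selection to the mature stage 3 fell (Cacnb1, Cacnb3 and Scnn1a) and 1 rose (Scn2b), against 7.79% and 14.5%. From the early to the mature stage 4 fell (Cacna1e, Cacnb3, Scn2b and Scn4b) and 1 rose (Cacng4), against 15.2% and 19.4%. Without TG6 late replicate 2 the number of genes called between the early and late stages dropped from 6 to 3, and without TG6 late replicate 1 or 2 the number between the late and mature stages dropped from 4 to 2.

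In OT-1, fewer genes passed the test from early to late positive selection, where 1 fell (Scn2b) and 1 rose (Cacnb1), against 14.0% and 12.7% of all genes. From late positive selection to the mature stage 3 fell (Cacnb1, Cacnb3 and Scnn1a) and 0 rose by limma, against 10.4% and 14.0%. From the early to the mature stage 4 fell (Cacna2d4, Cacnb3, Scn2b and Scn4b) and 0 rose by limma, against 10.5% and 12.8%. In the 3 comparisons where 0 genes rose, 0 of 8 rose at an unadjusted p under 0.05 as well. The median log2 change over the 8 genes from the early to the mature stage was -1.39 in TG6, -0.34 in F5 and -0.83 in OT-1, beside -0.03, -0.01 and -0.01 over all genes tested.

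Whether the change between the early and mature stages differed between lines was tested with F5 as 1 side of each comparison. The libraries on the other side had a part in choosing the genes, so these tests are not independent of the choice. Their counts and p-values, also beside the shares of all genes, only describe the genes. No channel gene passed for F5 against TG6, where 4.40% of all genes did, or for OT-1 against F5, where 1.64% did. At an unadjusted p under 0.05, 5 and 5 of the 8 genes differed by limma, beside 16.7% and 12.4% of all genes. The Cacnb1 change in F5 was higher than in TG6 by 1.15 ± 0.36 (SE) on the log2 scale (limma, adjusted p = 0.0737), and without TG6 mature replicate 1 or 2 it was called (1.42 and 1.38, adjusted p = 0.0236 and 0.0301), while without TG6 mature replicate 3 the difference was 0.65 (adjusted p = 0.0606). The Scn2b change was higher in F5 by 1.36 ± 0.51 (adjusted p = 0.159), and by 1.93 without TG6 mature replicate 3 (adjusted p = 0.0048). The Cacna1e change in OT-1 was higher, that is a smaller decrease, by 1.43 ± 0.45 than in F5 (adjusted p = 0.133). With the replicate block, 3 genes were called in each comparison, Cacna2d4, Cacnb1 and Scnn1a for F5 against TG6 and Cacna1e, Cacna2d4 and Scnn1a for OT-1 against F5, beside 9.35% and 5.41% of all genes. The Scnn1a difference, F5 minus TG6, was 1.36 (adjusted p = 0.293), and 0.67 without TG6 mature replicate 3 (adjusted p = 0.628).

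Between lines, the values are described without a test, because OT-1 against TG6 is the contrast the genes were selected on and the comparisons with F5 share those libraries. At early positive selection 6 of the 8 genes (Cacna1e, Cacnb1, Cacnb3, Scn2b, Scn4b and Scnn1a) had every TG6 library above every OT-1 library, as did 21.6% of all genes tested. The log2 difference was 2.56 ± 0.32 (SE) for Cacna1e, 2.20 ± 0.23 for Cacnb3, 2.26 ± 0.63 for Scn4b and 1.30 ± 0.36 for Scn2b. Cacng4 had the opposite sign, at -0.90 ± 0.57, with overlapping libraries. F5 lay between TG6 and OT-1 by group mean for 6 genes (Cacna1e, Cacna2d4, Cacnb1, Cacnb3, Scn4b and Scnn1a). The share of all genes in this order was not taken, here or for the orders of group means at the later stages.

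At late positive selection 6 genes (Cacna1e, Cacna2d4, Cacnb1, Cacnb3, Cacng4 and Scnn1a) had every TG6 library above every OT-1 library, as did 24.2% of all genes. The differences were 2.30 ± 0.25 (SE) for Cacnb3, 2.27 ± 0.51 for Scnn1a and 1.67 ± 0.63 for Cacng4 on the log2 scale. The sodium channel beta subunits had small differences, 0.33 ± 0.70 for Scn4b and -0.20 ± 0.40 for Scn2b, whose TG6 libraries lay below every OT-1 library. At this stage F5 had the highest group mean of normalized counts for 6 genes and lay between TG6 and OT-1 for Cacnb3. For 1 of the 6, Cacng4, the order of F5 and TG6 turned on the log2 scale, where TG6 minus F5 was 0.11 ± 0.63. For Cacna1e TG6 minus F5 was -0.08 ± 0.36, and the order rested on F5 late replicate 2, which had 142. F5 exceeded OT-1 by 2.57 ± 0.46 for Scnn1a, 1.31 ± 0.19 for Cacna2d4 and 1.24 ± 0.25 for Cacnb1, and for these 3 genes every F5 library also lay above both TG6 libraries. How many of all genes had F5 above TG6 in this way was not counted.

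In mature CD8SP thymocytes 3 genes (Cacnb3, Cacng4 and Scnn1a) had every TG6 library above every OT-1 library, as did 11.0% of all genes. Without TG6 mature replicate 3 this held for 6 genes, with Cacna1e, Cacna2d4 and Cacnb1 added, and for 27.8% of all genes. Without OT-1 mature replicate 1 it held for a different set of 6, with Cacna2d4, Scn2b and Scn4b added to the 3, and for 14.6% of all genes. The log2 difference was 1.49 ± 0.23 (SE) for Cacnb3 and 1.92 ± 0.46 for Scnn1a, and 1.58 and 2.61 without TG6 mature replicate 3. For Scn2b it moved from 1.18 ± 0.36 to 0.62 and for Scn4b from 1.50 ± 0.63 to 0.66, while for Cacnb1 it moved from 0.59 ± 0.25 to 1.09 and for Cacna1e from 0.59 ± 0.32 to 1.02. OT-1 had the lowest group mean for all 8 genes at this stage. The share of all genes with OT-1 lowest was not taken, and most of the 8 were selected on OT-1 against TG6. F5 exceeded OT-1 by 3.25 ± 0.46 for Scnn1a and 1.52 ± 0.25 for Cacnb1, with no overlap. How many of all genes had F5 above OT-1 in this way was not counted.

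**Figure D3:**
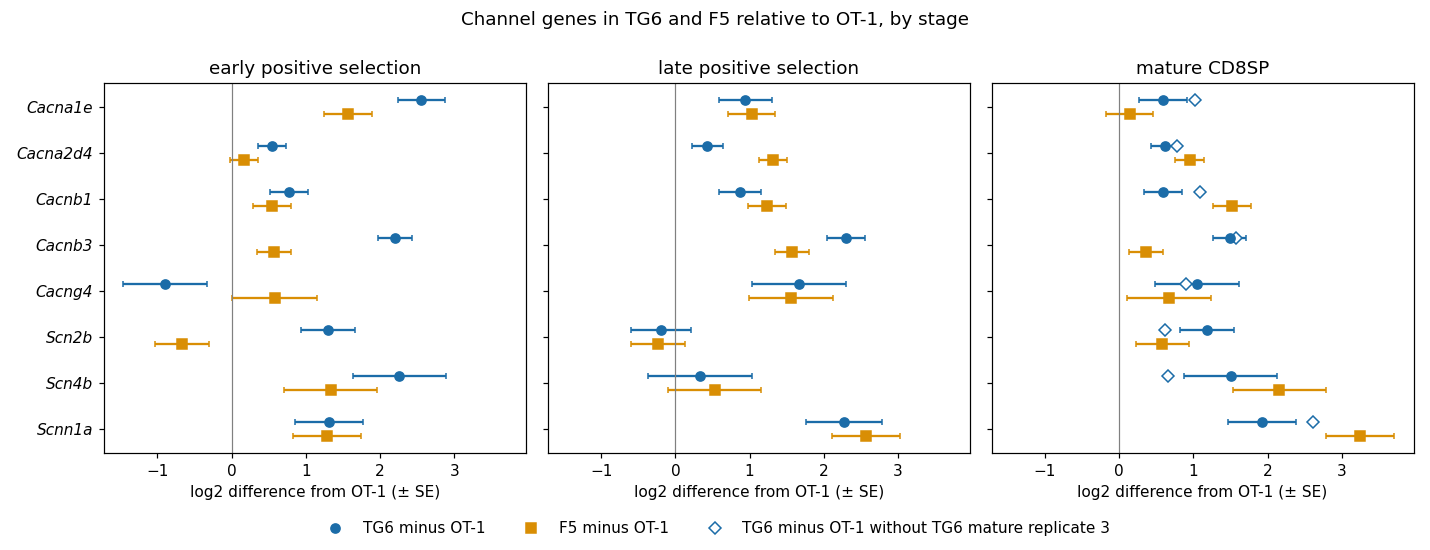
Log2 difference ± SE of TG6 and of F5 from OT-1 for each channel gene at the 3 stages, with open diamonds for TG6 minus OT-1 without TG6 mature CD8SP replicate 3. Cacnb3 stayed above OT-1 in TG6 at all stages, with differences of 2.20, 2.30 and 1.49, while Cacna1e had its largest difference at early positive selection.

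Levels of different genes were compared per kb of exon in the GENCODE vM21 annotation (GRCm38). By group mean, Cacnb1 reached 200.7 normalized counts per kb in F5 late positive selection and Cacnb3 157 in early TG6 thymocytes. The highest group means of Cacna2d4, Scnn1a, Scn2b, Cacng4, Scn4b and Cacna1e were 80.7, 54.4, 36.7, 21.8, 19.5 and 16 per kb. The pore subunit Cacna1e, with 25.2 kb of exons, was thus the lowest of the 8 by its highest group mean per length. This rank rests on all annotated exons of each gene, and which transcripts were expressed was not tested. The lowest group mean was that of Scn4b in OT-1 mature CD8SP thymocytes, at 0.481 per kb.

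**Figure D4:**
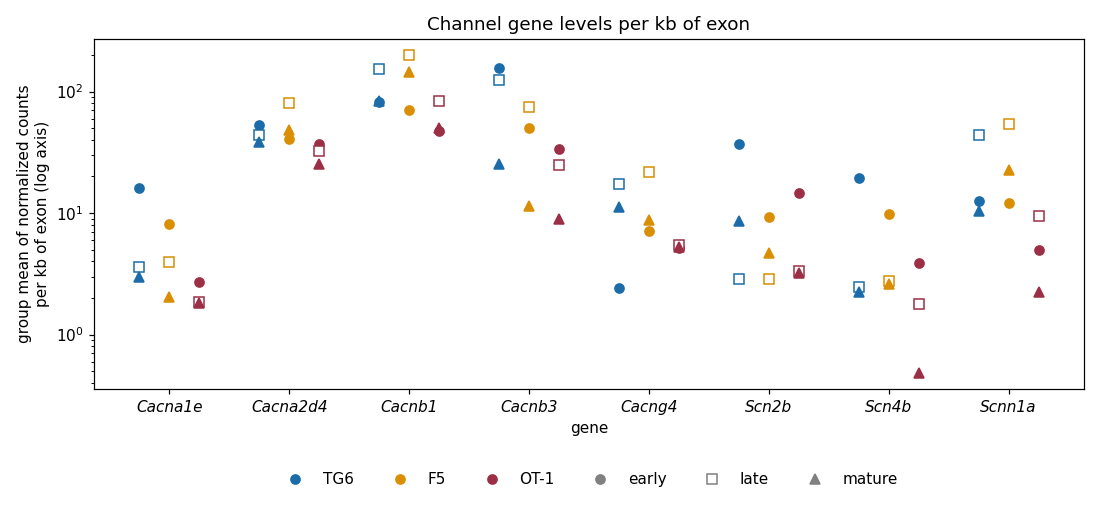
Group means of normalized counts per kb of exon (log axis) for the 8 channel genes, with color for the line and symbol for the stage. The calcium channel beta subunit genes Cacnb1 and Cacnb3 reached the highest levels, 200.7 and 157, and Scn4b in mature OT-1 thymocytes the lowest, 0.481.

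The list of other voltage-gated calcium and sodium channel and epithelial sodium channel subunits held 35 genes. Of these, 6 were listed at 0 in every library, 21 stayed under 10 in all libraries and 11 passed the filter. From the early to the mature stage 2 of the 11 fell in each line, beside 15.2%, 8.79% and 10.5% of all genes in TG6, F5 and OT-1, and from late positive selection to the mature stage again 2 fell in each line, beside 7.79%, 8.31% and 10.4%. From the early to the mature stage 2 rose in TG6, beside 19.4% of all genes. They were Scn11a and Cacna1a, which were named after their values were seen. Both encode pore subunits, of a sodium channel of sensory neurons and of the P/Q-type calcium channel. Scn11a had 15.8, 17.9 and 10.6 normalized counts in early, 65.6 and 62.9 in late and 61.6, 43.7 and 17.8 in mature TG6 thymocytes. Its rise to the mature stage was 1.27 ± 0.37 (SE) on the log2 scale (limma, adjusted p = 0.00915), and 1.77 without mature replicate 3 (adjusted p = 0.000231). For Cacna1a the rise was 2.05 ± 0.75 (adjusted p = 0.0387), and the call was lost without that library (1.75, adjusted p = 0.12). In F5 Scn11a had 26.3, 26.1 and 16.5, then 59.2, 58.2 and 46.9, then 23.3, 24.6 and 18.1, with a rise of 1.24 ± 0.37 (SE) on the log2 scale to the late stage and a fall of 1.28 ± 0.37 after it (limma, adjusted p = 0.0148 and 0.0154). Over the 11 genes the median log2 change from the early to the mature stage was 0.08 in TG6, -0.22 in F5 and -0.31 in OT-1.

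Across the 9 group means of log2(value + 1), the genes with the pattern most like each channel gene were taken from 11008 genes with a mean of at least 50. The points share libraries within groups, and the correlations are descriptions. For Cacna1e they were Synj2bp, Nat2 and Slc43a2, with Pearson's r of 0.979, 0.977 and 0.973. For Cacnb3 they were Tmcc3, Asb7 and Zfp644 (0.984, 0.977 and 0.976), and for Cacnb1 Gm38336, Rgl2 and Ezh1 (0.994, 0.98 and 0.977). For Cacna2d4 they were Bsdc1, Leng1 and Traf7 (0.979, 0.977 and 0.976), and for Cacng4 Klf8, N4bp1 and Rims3 (0.948, 0.939 and 0.937). For Scn2b they were Bet1, Cyb5a and P2rx1 (0.97, 0.968 and 0.964), for Scn4b Gm37534, Bambi-ps1 and Fbxl12 (0.984, 0.977 and 0.971), and for Scnn1a Lppr3, Gm17552 and Clk4 (0.985, 0.984 and 0.982). Among the 8 genes themselves, the highest correlations over the 9 group means were 0.947 for Cacnb1 with Scnn1a and 0.893 for Cacna1e with Scn4b, and the lowest was -0.715 for Cacng4 with Scn2b.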

How the data were processed

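RNA-seq was performed by the authors on 26 libraries of sorted thymocytes. Per the labels and the methods, reads were trimmed with Trimmomatic 0.32, aligned to mm10 with Bowtie2 2.3.2 and quantified with RSEM 1.2.31. The deposited values are a normalized signal per gene symbol, expected counts that the authors divided by DESeq2 median of ratios size factors. They are not whole reads and not scaled by length, so the depth of each library before scaling is unknown here and no counting interval is given. This scaling assumes that most genes do not change. The annotation and strandedness are not given in the sources used here.

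Groups and replicate numbers came from the labels. Values were tested with limma 3.58.1 (R 4.3.3) on log2(value + 1), in a joint fit of the 9 groups, with a prior variance that follows mean expression and 17 residual degrees of freedom. Genes needed at least 10 in at least 2 libraries. P-values were Benjamini-Hochberg adjusted over 16372 genes, and the threshold was 0.05. The design text gives 3 mice per line, whose thymocytes were sorted into the 3 populations. That 1 replicate number marks the same mouse at each stage was taken from the labels' biological replicate numbers and is not stated outright, and the numbers were used as a pairing within a line in an alternative with a block. Same-numbered libraries had correlations of their deviations over 0.1 in 9 of 9 pairs in F5 (0.106 to 0.34), 2 of 7 in TG6 (0.023 to 0.274) and 5 of 9 in OT-1 (0.0189 to 0.178). All 8 genes were described, and the nearest patterns were the 3 genes with the highest Pearson's r. The genes and lists were chosen with earlier results of these data known, so no list is independent evidence. Other alternatives were a pseudocount of 0.1 or 5, all genes without the filter, genes with a mean over 50 only, scaling to equal totals, quantile normalization, a fit of only the groups compared, a prior without trend and leaving out each library. Leaving out TG6 mature replicate 3 for Scn11a and Cacna1a, and the shares of all genes without 1 mature library, were added after seeing the data. Results of 2 single genes of the family list are not reported here.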

Additional observations from a re-analysis of the deposited data

Results flagged for a closer look

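For 3 genes, libraries moved in opposite directions in 2 lines, with every library of the later stage on the same side of every library of the earlier stage in each line. For Scnn1a from early positive selection to the mature CD8SP stage, the log2 change was -1.10 in OT-1 and 0.87 in F5, and the difference, OT-1 minus F5, was -1.97 ± 0.65 (SE; limma, adjusted p = 0.152, and 0.00616 with the replicate block). For Cacna2d4 from early to late positive selection, it was 1.00 in F5 and -0.26 in TG6, and the difference, F5 minus TG6, was 1.26. For Cacnb3 over the same step, it was -0.42 in OT-1 and 0.58 in F5, and the difference, OT-1 minus F5, was -0.999. The early to late differences were not tested. Of the changes within a line, only the Cacna2d4 rise in F5 passed the main fit (limma, adjusted p = 0.000395). The TG6 change of Cacna2d4, with 2 late libraries, did not (adjusted p = 0.431). Neither did those of Scnn1a in OT-1 and F5 (adjusted p = 0.092 and 0.212) or of Cacnb3 in OT-1 and F5 (adjusted p = 0.189 and 0.0635). How many of all genes moved in this way was not counted. The genes were picked for moving in opposite directions, so the values describe them only.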

How the results depend on the processing

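With 2 or 3 libraries per group, 1 library can end a call, and genes with low values (Scn4b and Cacng4) had the widest errors. Over the alternatives, 1244 of the changes of single genes kept their direction and side of the threshold, 60 lost a call, 36 gained one and 27 turned direction, none of which was called. The cause was not tested. Median shifts over all genes lay between -0.12 and 0.13 with equal totals and between -0.10 and 0.10 with quantile normalization.

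With a mean of at least 50, which leaves out Cacng4, Scn2b and Scn4b, the number of genes called from the early to the mature stage was 2 in TG6 and 2 in OT-1, in place of 5 and 4, and from early to late positive selection 3 in TG6 and 1 in OT-1, in place of 6 and 2. In a fit of only the groups compared, 1 gene in place of 4 was called between the late and mature stages in TG6, and 1 in place of 0 for OT-1 against F5. With the replicate block, 3 in place of 0 were called for F5 against TG6 and 3 in place of 0 for OT-1 against F5, and the other calls that changed with the pairing stand beside their results. Leaving out 1 library gave 3 to 6 genes from early to late positive selection in TG6, 1 to 2 in OT-1, 2 to 4 between the late and mature stages in TG6, and 0 to 1 for F5 against TG6. The number of genes with every TG6 library above every OT-1 library in mature thymocytes was 3 to 6.

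With equal totals, Cacnb1 from the early to the mature stage in OT-1 was -0.0049 and Cacng4 from the late to the mature stage in OT-1 was -0.054, and with a pseudocount of 5 the latter was -0.0040. With quantile normalization, Scn2b from the late to the mature stage in OT-1 was 0.0051. Leaving out each library gave, from the early to the mature stage, ranges of -0.38 to 0.38 for Cacnb1 and -0.94 to 0.20 for Scnn1a in TG6 and of -0.35 to 0.47 for Cacng4 in OT-1. From early to late positive selection in OT-1 they were -0.32 to 0.063 for Cacna2d4 and -0.35 to 0.50 for Cacng4. From the late to the mature stage they were -0.65 to 0.048 for Cacna1e and -1.39 to 0.18 for Scn4b in TG6 and -0.48 to 0.15 for Scn4b in F5. In OT-1 they were -0.15 to 0.17 for Cacna1e, -0.32 to 0.25 for Cacng4 and -0.42 to 0.10 for Scn2b. For Cacng4 the difference in change, OT-1 minus F5, was -0.63 to 0.19.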
